A study of Mus musculus with 2 samples.

Results

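The miR-15 and miR-16 seed family was followed in the left cerebral cortex of young mice. Its 8 hairpin genes, Mir15a, Mir16-1, Mir15b, Mir16-2, Mir497, Mir195a, Mir503 and Mir322, were taken by symbol from the 2202 microRNA genes of the deposited tables. All 8 were found in both libraries. The list was drawn up with the own-strand counts of these libraries already known, so levels and ratios between the animals are given as a description, with no test. The 2 libraries form a single group: female B6CASTF1/J mice, first-generation hybrids of C57BL/6J and CAST/EiJ, sampled at 10 days of age, untreated as far as the labels say. The labels number the females differently but give both the same donor entry. They are called animal 1 and animal 2 here, after the biological replicate numbers of the labels. Libraries were made from total RNA with a multiplexed protocol for short RNA; reads assigned to microRNA genes numbered 3806078 in animal 1 and 2602935 in animal 2.

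A microRNA is processed from a folded precursor, the hairpin, which can give a mature strand from its 5′ and its 3′ arm. The mature strand guides a silencing complex to messenger RNAs, mainly by pairing of its seed, bases 2 to 8. The miR-15 and miR-16 family is known for holding back the cell cycle and cell survival, with cyclin D1, cyclin E1 and Bcl2 among its established targets. The Mir15a and Mir16-1 locus is known as a tumour suppressor locus of B cells in human and mouse. In the mouse heart Mir195a is known to rise around birth, and in mouse myoblasts Mir322 and Mir503 are known to favour exit from the cell cycle. In the embryonic mouse neocortex Mir15b has been described as limiting the division of neural progenitors.

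The family is defined by its seed, so the 5′ mature strands are shown here, from the RefSeq table of build GRCm38.p6, which had the 5′ strand of all 8 genes. Each line runs 5′ to 3′, with bases 2 to 8 in capitals.
miR-15a-5p: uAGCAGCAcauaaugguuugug
miR-15b-5p: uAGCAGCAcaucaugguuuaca
miR-16-5p: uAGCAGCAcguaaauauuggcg
miR-195a-5p: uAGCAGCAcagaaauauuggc
miR-497a-5p: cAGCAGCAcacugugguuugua
miR-322-5p: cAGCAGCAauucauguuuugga
miR-503-5p: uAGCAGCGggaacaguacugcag
The 8 genes gave 7 distinct 5′ strands, since Mir16-1 and Mir16-2 encode the same one. All but miR-503-5p carried AGCAGCA as seed. miR-503-5p differed from miR-15a-5p within bases 1 to 8 by A8G, counted from the 5′ end, so it shared bases 2 to 7 only and is a neighbour of the family rather than a full seed match. miR-497a-5p and miR-322-5p differed from miR-15a-5p by U1C, outside the seed. Past the seed the strands diverged. Counted from base 1, seed included, miR-15a-5p had 18 of 22 bases in common with miR-15b-5p at the same positions. By the same count it had 16 of 22 in common with miR-16-5p and 11 of 22 with miR-503-5p. miR-16-5p and miR-195a-5p had 19 of 21 in common.

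A search of the mature strands in that table for the 2 seeds of the family, on either arm, found 4 further genes, Mir195b, Mir6342, Mir6353 and Mir6419, all with AGCAGCA. None of the 4 had a read in either library, which allows up to 0.788 CPM in animal 1 and 1.15 CPM in animal 2 (3 counts per library, a one-sided limit). CPM are reads of a gene scaled to a common total of reads counted to microRNA genes. Of the genes in that table with either seed, only the 8 members thus had counted reads. The intervals and limits given here cover counting error only.

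The 8 genes lie in 4 pairs of adjacent hairpins (build mm10, GENCODE M21). Mir15a (ENSMUSG00000093007.1, chromosome 14, 61632027 to 61632110) and Mir16-1 (ENSMUSG00000092995.1, chromosome 14, 61631880 to 61631972) lie on the minus strand, 54 bases apart. Both lie within the long non-coding gene Dleu2, Mir15a in an intron and Mir16-1 overlapping an annotated exon. Mir15b (ENSMUSG00000065580.2, chromosome 3, 69009772 to 69009835) and Mir16-2 (ENSMUSG00000065606.1, chromosome 3, 69009902 to 69009996) lie on the plus strand, 66 bases apart, in an intron of Smc4, which encodes a condensin subunit. Mir497 (ENSMUSG00000105220.1, chromosome 11, 70234717 to 70234800) and Mir195a (ENSMUSG00000065411.2, chromosome 11, 70235042 to 70235135) lie on the plus strand, 241 bases apart. Mir195a is annotated between genes, and Mir497 lies opposite the hairpin gene Mir497b. Mir503 (ENSMUSG00000076122.1, chromosome X, 53053984 to 53054054) and Mir322 (ENSMUSG00000065418.1, chromosome X, 53054255 to 53054349) lie on the minus strand, 200 bases apart, and are annotated between genes.

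The counts of Mir16-1 and Mir16-2 need a limit of their own, shown by their hairpins. In the RefSeq hairpins below, 5′ to 3′, capitals mark the longest run of bases that both hold.
Mir16-1 hairpin: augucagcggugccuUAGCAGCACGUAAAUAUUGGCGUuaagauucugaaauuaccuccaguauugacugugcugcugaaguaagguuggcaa
Mir16-2 hairpin: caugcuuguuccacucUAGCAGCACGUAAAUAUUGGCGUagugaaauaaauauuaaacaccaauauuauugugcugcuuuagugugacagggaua
The shared run was 23 bases long, bases 16 to 38 of Mir16-1 and 17 to 39 of Mir16-2, and covered the whole of miR-16-5p. A read inside it fits both loci. The deposited tables keep reads that map to several positions in a row apart from the genes, and that row held 4850682 reads in animal 1 and 3454278 in animal 2. For this reason the levels of Mir16-1 and Mir16-2 are uncertain and could be underestimates.

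In animal 1 the family held 1.10% of counted reads, with a 95% exact Clopper-Pearson interval of 1.09 to 1.11. In animal 2 it held 0.510%, with an interval of 0.501 to 0.518. The mean was 0.806% ± 0.419 (SD, n = 2). These were 41951 reads in animal 1 and 13263 in animal 2. The family's share was thus 2.16 times as large in animal 1. Reads that fit both Mir16-1 and Mir16-2 could be missing from the family's reads. The family's shares and their ratio thus hold for counted reads only, and the intervals do not cover such missing reads. The gene counts cannot show how many are missing. Mir195a alone held 0.472% in animal 1 and 0.0580% in animal 2. Without it the other 7 genes held 0.630% in animal 1 and 0.451% in animal 2, or 1.40 times as much. An SD over 2 animals rests on a single difference. All 8 genes reached 10 CPM in both libraries, as did 13.9% of the 2202 listed genes.

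By mean level Mir195a came first, with 4724 CPM in animal 1 and 580.5 CPM in animal 2 (2652 ± 2929.7, SD, n = 2). Its mean describes neither animal, since it ranked 41st of all 2202 genes in animal 1 and 125th in animal 2. Mir322 had 1539.9 CPM in animal 1 and 2331 CPM in animal 2 (1935 ± 559), and it was the highest of the 8 in animal 2. Mir497 had 1255 CPM in animal 1 and 837 CPM in animal 2 (1046 ± 296). Mir15a had 1595 CPM in animal 1 and 376 CPM in animal 2 (986 ± 861). For Mir15b the values were 1279.8 CPM in animal 1 and 619 CPM in animal 2 (949.5 ± 467). The 5 genes so far made up the upper tier by counted reads, and in both animals each of them was above the 3 that follow. For Mir16-1 and Mir16-2 the lower place carries the limit given above, since their levels could be underestimates.

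Mir16-1 had 435 CPM in animal 1 and 139 CPM in animal 2 (287 ± 209), and Mir16-2 had 113 CPM in animal 1 and 146 CPM in animal 2 (129.8 ± 23.4). Mir503, the gene with the differing seed, was lowest in both animals, with 81.2 CPM in animal 1 and 66.1 CPM in animal 2 (73.6 ± 10.7). Among neighbours in the order of means, Mir322 was above Mir497, Mir15b above Mir16-1 and Mir16-2 above Mir503 with no overlap of the 2 animals' values. Mir195a and Mir322, Mir497 and Mir15a, Mir15a and Mir15b, and Mir16-1 and Mir16-2 overlapped, and within each of these pairs the order turned round between the animals. The places of Mir16-1 and Mir16-2 rest on the reads counted to them alone and carry the same limit. Only Mir503 held the same place in both animals and in the order of means.

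**Figure D1:**
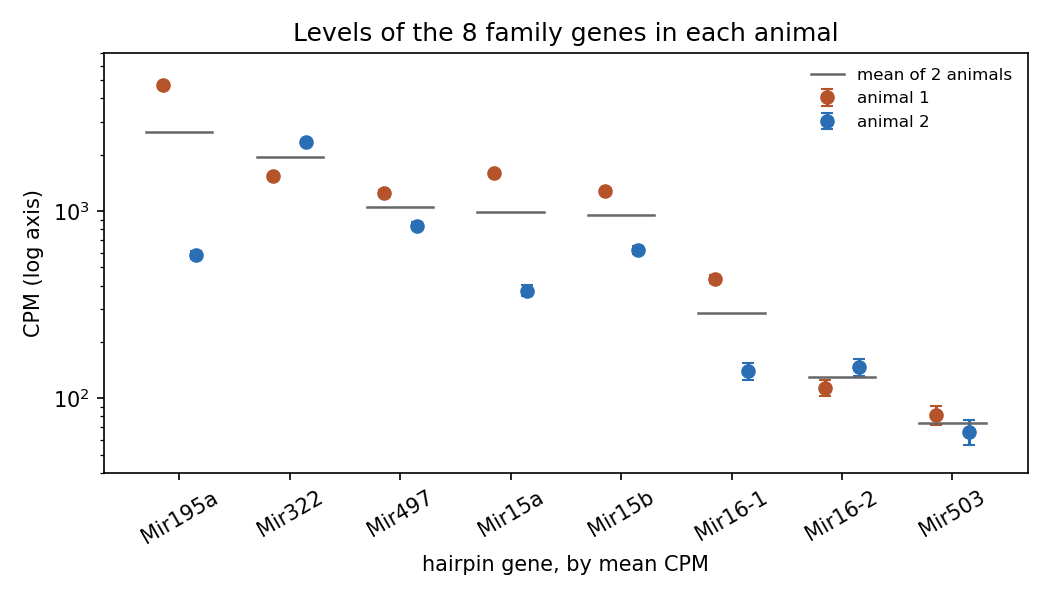
CPM of each family gene (log axis) in animal 1 and animal 2, with 95% exact counting intervals and the mean of both animals as a line. Mir195a spans from 580.5 to 4724 CPM, while for Mir503 and Mir16-2 the points of the animals lie close together.

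The make-up of the family's counted reads differed between the animals. Reads of miR-16-5p that fit both Mir16-1 and Mir16-2 could be missing from these counts. The shares of those 2 genes could then be too low and those of the other genes too high. Mir497 and Mir195a together held 54.2% of family reads in animal 1 (95% exact interval 53.8 to 54.7) and 27.8% in animal 2 (27.1 to 28.6). The X-linked pair, Mir503 and Mir322, went the other way, with 14.7% in animal 1 (14.4 to 15.1) and 47.0% in animal 2 (46.2 to 47.9). Mir15a and Mir16-1 held 18.4% in animal 1 and 10.1% in animal 2. Mir15b and Mir16-2 held 12.6% in animal 1 and 15.03% in animal 2. A single gene led by counted reads in each animal. Mir195a held 42.9% of family reads in animal 1, against 11.4% in animal 2. Mir322 held 14.0% in animal 1 and 45.7% in animal 2.

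**Figure D2:**
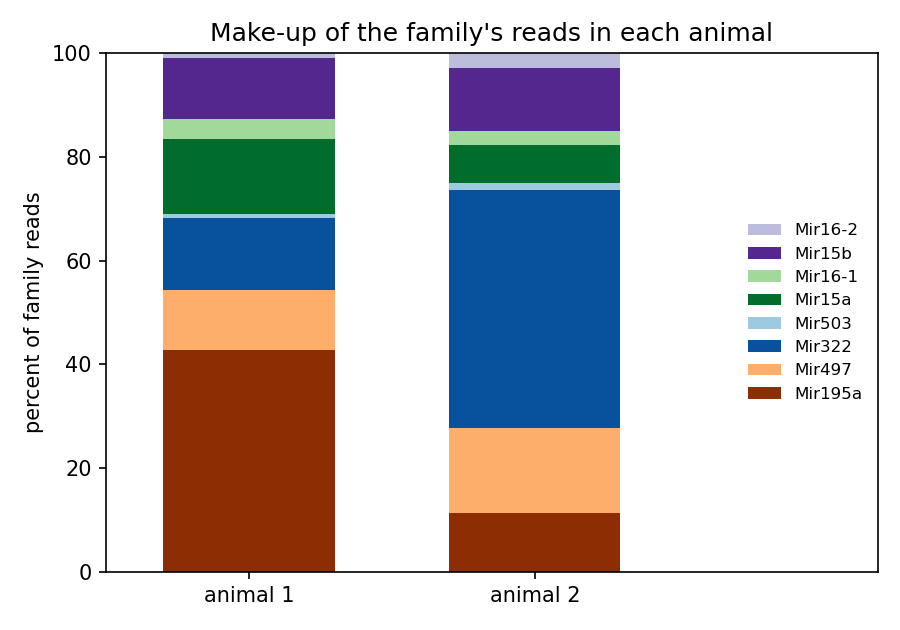
Percent of the family's reads from each gene in animal 1 and animal 2, stacked by pair. Mir195a takes 42.9% of the bar of animal 1 and 11.4% of that of animal 2, and Mir322 takes 14.0% of that of animal 1 and 45.7% of that of animal 2.

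Ratios between the animals were computed after scaling with TMM factors, on 531 genes with at least 10 reads summed over both libraries, with 0.5 added to each count. One library stands against one library of the same group, so no replicate check is possible. Of the 8 family genes, 3 were past 2-fold: all 3 were higher in animal 1, and 0 were higher in animal 2. Among the 531 genes, 23.7% were past 2-fold in either direction, 18.3% towards animal 1 and 5.46% towards animal 2. The median log2 ratio of animal 1 over animal 2 was 0.61 over the family and 0.04 over all genes. These ratios belong to the counts the list was drawn up with, so they stand side by side here and nothing is read from their difference.

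The 3 genes past 2-fold were Mir195a, Mir15a and Mir16-1. Mir195a had 17979 reads in animal 1 and 1511 in animal 2, a log2 ratio of 2.82 (95% exact counting interval 2.75 to 2.90), the 10th highest of the 531. Mir15a had 6069 reads in animal 1 and 980 in animal 2, a log2 ratio of 1.88 (1.78 to 1.98). Its partner Mir16-1 had 1654 reads in animal 1 and 362 in animal 2, a log2 ratio of 1.44 (1.28 to 1.61). So both hairpins of the Dleu2 locus stood higher in animal 1, while of the chromosome 11 pair only Mir195a was past 2-fold.

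Mir15b, with 4871 reads in animal 1 and 1612 in animal 2, had a log2 ratio of 0.84 (0.76 to 0.93). Mir497, with 4777 reads in animal 1 and 2178 in animal 2, had a log2 ratio of 0.38 (0.31 to 0.46). Mir503, with 309 reads in animal 1 and 172 in animal 2, had a log2 ratio of 0.09, and its interval of -0.18 to 0.37 includes 0. The remaining genes were higher in animal 2. Mir16-2 had 431 reads in animal 1 and 381 in animal 2, a log2 ratio of -0.57 (-0.78 to -0.37). Mir322 had 5861 reads in animal 1 and 6067 in animal 2, a log2 ratio of -0.80 (-0.85 to -0.75). Genes that share the AGCAGCA seed thus ran from -0.80 to 2.82 on the log2 scale of this ratio.

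**Figure D3:**
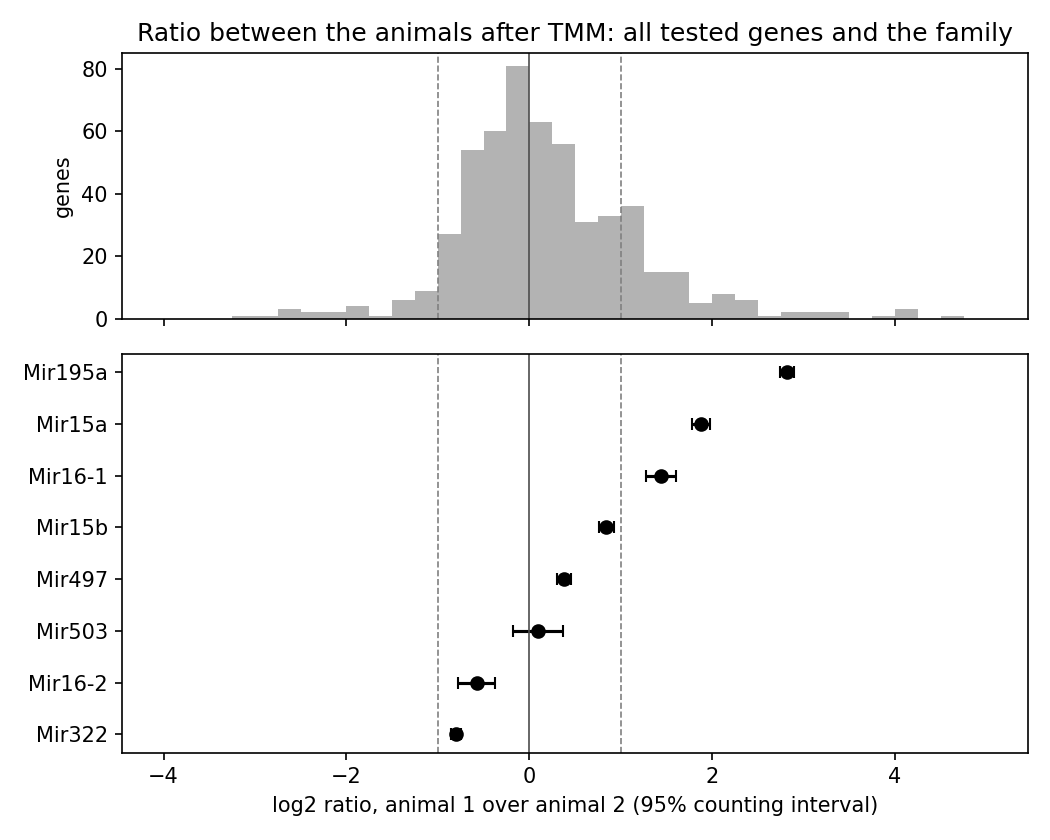
Log2 ratio of animal 1 over animal 2 after TMM scaling, as a histogram of the 531 genes (top) and for each family gene with its 95% exact counting interval (bottom); dashed lines mark 2-fold. Mir195a, Mir15a and Mir16-1 lie beyond the upper line and no family gene beyond the lower one.

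The hairpins of a pair lie close together, and their ratio within a library does not depend on how libraries are scaled. The counting intervals of these ratios leave out the spread between animals. Mir497 had 0.266 times as many reads as Mir195a in animal 1 and 1.44 times as many in animal 2, so the more abundant hairpin of the pair changed. On the log2 scale these ratios were -1.91 (95% exact interval -1.96 to -1.87) in animal 1 and 0.53 (0.43 to 0.62) in animal 2, a 5.43-fold shift. Mir15b had 11.3 times as many reads as Mir16-2 in animal 1 and 4.23 times as many in animal 2, a 2.67-fold shift. Mir322 had 19.0 times as many reads as Mir503 in animal 1 and 35.3 times as many in animal 2, a 1.86-fold shift. Mir15a had 3.67 times as many reads as Mir16-1 in animal 1 and 2.71 times as many in animal 2, a 1.36-fold shift. The ratios with Mir16-1 or Mir16-2 carry the limit given above for reads of miR-16-5p, so these 2 hairpins may be more abundant than the ratios show.

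The same shift was computed for all neighbouring hairpins on 1 strand that lie at most 1000 bases apart and have at least 100 reads each, a set chosen after the values of the family had been seen. There were 54 such pairs, the 4 family pairs included and 22 of them on chromosome 12, with a median log2 shift of 0.53 (quartiles 0.25 and 1.07). Mir497 and Mir195a had the largest of the 54, at 2.44. Mir15b and Mir16-2 ranked 7th at 1.42, Mir503 and Mir322 21st at 0.89, and Mir15a and Mir16-1 34th at 0.44.

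**Figure D4:**
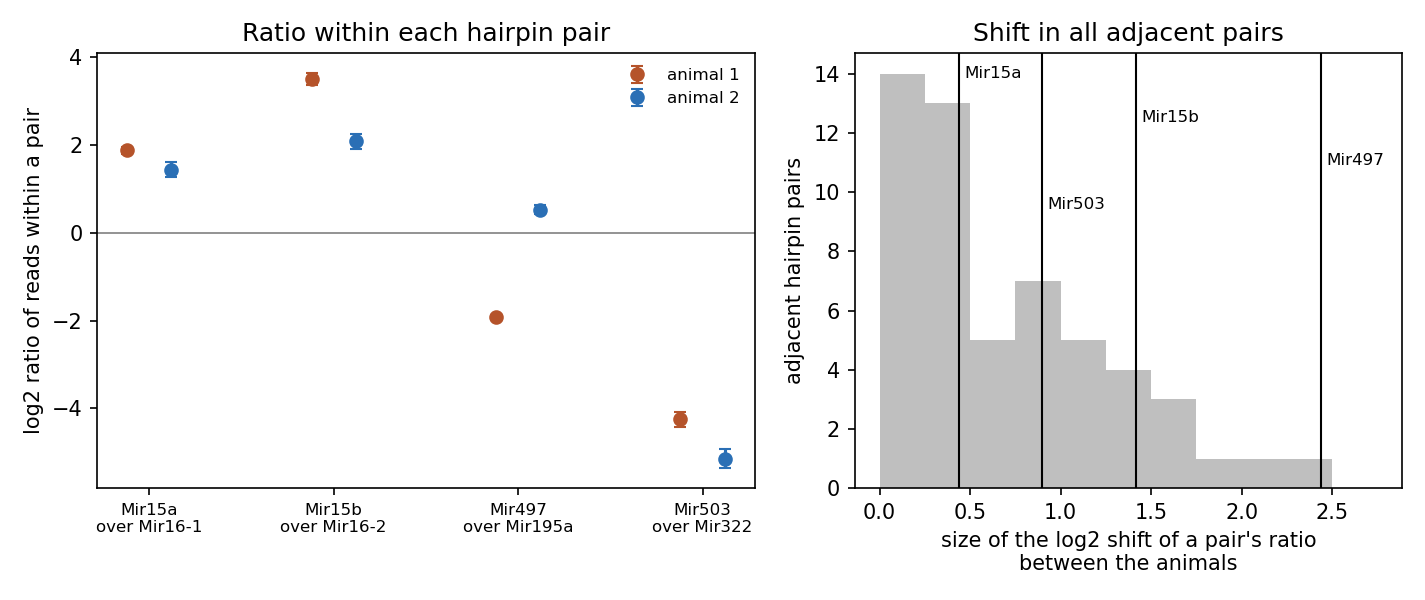
Left, log2 ratio of reads within each hairpin pair in animal 1 and animal 2, with 95% exact counting intervals; the pair of Mir497 and Mir195a crosses 0. Right, size of the shift of that ratio between the animals for 54 adjacent hairpin pairs, with the 4 family pairs marked by lines under the name of their first gene; Mir497 with Mir195a lies at 2.44.

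The neighbours of Mir322 and Mir503 on the X chromosome were looked up within 10000 bases. Mir351 had 934 CPM in animal 1 and 742 CPM in animal 2 (838 ± 136), below Mir322 and above Mir503 in both animals. Mir542 followed with 106.9 CPM in animal 1 and 84.1 CPM in animal 2 (95.5 ± 16.1). Mir450b, at 10.2 CPM in animal 1 and 8.84 CPM in animal 2, was near the detection threshold. Mir450-1 and Mir450-2 had at most 4 reads in a library. Whether Mir450-1 and Mir450-2 share a strand was not looked up, so their counts may be underestimates and are not read as low levels. The log2 ratios of Mir351, Mir542 and Mir450b were 0.13, 0.14 and -0.00, near that of Mir503 at 0.09, while Mir322 was at -0.80. The counting interval of Mir322, -0.85 to -0.75, rests on 5861 reads in animal 1 and 6067 in animal 2. That of Mir450b, on 39 reads in animal 1 and 23 in animal 2, was far wider, at -0.77 to 0.82. How many of all genes have an interval wholly below 0 was not computed, so Mir322 is not set apart by its interval.

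MicroRNAs of the related mir-103/107 family hold AGCAGC one base further towards the 5′ end, which gives another seed. The strand of Mir107 is printed for comparison, again with bases 2 to 8 in capitals.
miR-107-3p: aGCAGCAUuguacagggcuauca
Mir107 had 1994 CPM in animal 1 and 3337 CPM in animal 2 (2666 ± 949.6), a log2 ratio of -0.95. Mir103-2 had 26.8 CPM in animal 1 and 34.2 CPM in animal 2. Mir103-1, at 3.42 CPM in animal 1 and 6.15 CPM in animal 2, was below the detection threshold. Mir103-1 and Mir103-2 encode 1 strand between them, so their levels are uncertain for the same reason as those of Mir16-1 and Mir16-2. Of the 3 genes, 1 was past 2-fold, Mir103-1, on 13 reads in animal 1 and 16 in animal 2, and the interval of its log2 ratio, -2.23 to 0.10, includes 0.

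For each family gene the microRNA gene outside the family with the most similar levels was found, by Euclidean distance of log2(CPM + 0.5) over the 2 libraries. The distance was 0.05 to 0.13 for 6 genes. Mir16-2 was nearest to Mir30c-1, Mir16-1 to Mir702, Mir497 to Mir29a, Mir503 to Mir3093, Mir15b to Mir92-1 and Mir322 to Mir221. Mir15a was 0.38 from Mir129-2, which had 1291 CPM in animal 1 and 443 CPM in animal 2. Of the 8, Mir195a had the most distant nearest gene, at 0.91 from Mir423, which had 2856 CPM in animal 1 and 847 CPM in animal 2. A likeness over 2 libraries describes levels only.

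Marker genes of the tissue and of other cell types were measured beside the family. In bulk tissue, fewer cells of a type and less RNA per cell cannot be told apart. Of 7 neuronal genes 4 were detected, and the list summed to 36729.9 CPM in animal 1 and 38071 CPM in animal 2. The 3 not detected were the Mir124a copies, with at most 13 reads in a library. Whether these copies share a strand, as Mir16-1 and Mir16-2 do, was not looked up. Their counts may thus be underestimates and are not read as low levels. The endothelial gene Mir126a was higher in animal 1, as were Mir195a and Mir15a. Mir126a had 28913 CPM in animal 1 and 8265 CPM in animal 2, a log2 ratio of 1.60. The other endothelial gene, Mir126b, had 0 reads. It is annotated within Mir126a on the opposite strand, so it is not a separate measure of endothelial cells. The red blood cell genes Mir451a and Mir144 also stood higher in animal 1, both of 2 past 2-fold, as were 18.3% of the 531 tested genes. Their hairpins lie 99 bases apart on chromosome 11, so they are not separate measures. Mir451a and Mir144 summed to 49.1 CPM in animal 1 and 17.7 CPM in animal 2. In animal 2 both were below the detection threshold, with 25 reads of Mir451a and 21 of Mir144. The counting intervals of their log2 ratios, 0.69 to 2.02 for Mir451a and 0.49 to 1.96 for Mir144, reach below 2-fold. The smooth muscle and pericyte genes went against Mir195a: Mir143 had 3004 CPM in animal 1 and 4047 CPM in animal 2, and Mir145a had 141 CPM in animal 1 and 477 CPM in animal 2.

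The other lists did not share one direction with Mir195a. The 4 genes of blood and microglia had log2 ratios from -0.71 to -0.16 after TMM, while by CPM alone Mir155 was on the other side, with 53.3 CPM in animal 1 and 51.9 CPM in animal 2. They summed to 837 CPM in animal 1 and 1151 CPM in animal 2. Of the 3 oligodendrocyte genes 1 was past 2-fold higher in animal 1, Mir219a-1, on 77 reads in animal 1 and 4 in animal 2, and the list summed to 1187 CPM in animal 1 and 1640.5 CPM in animal 2. The choroid plexus gene Mir204 had a log2 ratio of 0.00. The liver gene Mir122 had 42.6 CPM in animal 1 and 41.9 CPM in animal 2. Of 6 muscle genes 4 had 0 reads: the copies Mir1a-1, Mir1a-2, Mir133a-1 and Mir133a-2. Whether these copies share strands, so that their reads were set apart as multiply mapped, was not looked up. The list summed to 24.7 CPM in animal 1 and 31.5 CPM in animal 2, from Mir206 and Mir208a alone. The part of the endothelial and red blood cell genes in the levels of Mir195a, Mir15a and Mir16-1 was not tested.

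Strand set the value of 1 family gene. Mir497 and the gene Mir497b (70234692 to 70234816, minus strand) overlap on opposite strands. On its own strand Mir497 had 4777 reads in animal 1 and 2178 in animal 2, while Mir497b had 1 read in animal 1 and 0 in animal 2. In the unstranded column both genes were at 0 in both animals, since reads that overlap several genes are kept apart there. The other 7 family genes had identical counts in the unstranded and the own-strand column, and 0 reads on the opposite strand.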

How the data were processed

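MicroRNA sequencing of cortical RNA from 2 female mice gave 1 table of read counts per library. The authors deposited whole-number counts per hairpin gene, arms summed, on both strands, the own strand and the opposite strand. Per the labels and the notes beside the tables, the build was mm10 and the annotation GENCODE M21; for the aligner and the counter nothing is stated (not given in the sources used here). All 2202 gene identifiers matched M21. The 4 rows for unmapped, multiply mapped, unassigned and ambiguous reads were left out of library sizes. Counted reads were 33.5% of 11350270 in animal 1 and 30.4% of 8551277 in animal 2.

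CPM and percentages were computed over own-strand reads counted to genes, with exact 95% intervals. Ratios used TMM factors (1.07 and 0.932 for animals 1 and 2) from edgeR 4.0.16 in R 4.3.3 and carry no p-value. Their computation was tried on simulated counts with counting noise only and changes of random direction. Such counts leave out the spread between animals, so nothing about the ratios themselves is drawn from them. Alternatives used DESeq2 1.42.0 size factors, library totals, no filter on low counts, 1 added to each count, unstranded counts and single animals. Python 3.11.15 with scipy 1.17.1, pandas 2.3.3 and matplotlib 3.10.9 was used. The members, lists and the rule for named genes were chosen with earlier results of these data known. The rule names all members, all genes sharing their seed, the mir-103/107 genes, Mir126a, Mir143, Mir145a and each member's nearest gene by level; other genes were named after their values were seen.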

Additional observations from a re-analysis of the deposited data

How the results depend on the processing

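No paired analysis was possible because the study has 1 group. Over DESeq2 size factors, library totals, TMM without the filter on low counts, 1 added to each count and unstranded counts, 3 or 4 family genes were past 2-fold towards animal 1 and 0 towards animal 2, and each log2 ratio that could be computed kept its sign. Library totals moved every log2 ratio by 0.20 towards animal 1. The fourth gene, with library totals, was Mir15b at 1.05. With library totals 22.8% of all genes were past 2-fold higher in animal 1 and 3.95% in animal 2. Under the other settings 16.6 to 18.8% of all genes were past 2-fold higher in animal 1 and 5.08 to 6.59% in animal 2. In the unstranded column Mir497 had no reads, so its ratio and its pair could not be computed. With all reads of the table as denominator the family held 0.262% in place of 0.806%, by construction. It held 0.510 to 1.10% with either animal left out. Family reads set apart as multiply mapped would be missing from each of these values. At 100 CPM 7 genes were detected in place of 8, and the share of all genes at that level is not given here. With a single animal, 1 to 4 of the 8 genes kept their place in the order of means. The mean log2 ratio of Mir497 over Mir195a, -0.69, became 0.53 without replicate 1 and -1.91 without replicate 2; the cause was not tested. The other pairs kept their sign. Depth limits Mir503 most, with 172 to 309 reads.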
